A study of Saccharomyces cerevisiae with 6 samples.

Results

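Peroxisomes are organelles bounded by a single membrane, and in budding yeast (Saccharomyces cerevisiae) they are the site of fatty acid oxidation. The genes described here are 33 of the 9891 rows of the count table, taken by systematic name: 28 of them encode peroxins (PEX genes), and the others are the inheritance genes INP1 and INP2, the carrier gene ANT1 and the regulator genes OAF1 and PIP2. They were grouped by known role into 16 genes of matrix protein import, 2 of membrane protein insertion, 10 of proliferation and of organelle size and number, 2 of inheritance, 1 transporter and 2 regulators. Quiescent cells were taken 7 days after inoculation, when the culture had stopped growing, as the fraction purified by passing cells over Percoll gradients. Log-phase cells were harvested while growing at an OD600 of 0.8 to 1.0. RNA was depleted of ribosomal RNA and sequenced on an Ion Proton instrument. There were 3 biological replicates of each, all of strain YCH406 (MATa), grown at 30 C in YPD with added adenine and ampicillin. In both groups the strain lacked the chromosomal gene pairs HTA1-HTB1 (replaced with LEU2) and HTA2-HTB2 (replaced with TRP1), carried mutant his3, leu2, ura3 and trp1 alleles and a 9Myc tag on RPB3 marked with hphNT1, and held HTA1-HTB1 on the plasmid pSAB6 (URA3) and HTA1-Flag-HTB1 on pZS145 (HIS3).

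Matrix proteins of the peroxisome are made in the cytosol and carry targeting signals called PTS1 or PTS2, which soluble receptors bind and bring to a docking complex in the membrane. A complex of RING ubiquitin ligases then marks the receptor, and a pair of ATPases pulls it back out for another round. Membrane proteins enter by a separate route through Pex3 and Pex19, and the Pex11 family and the Pex28 to Pex32 proteins set how many peroxisomes a cell has and how large they are. Yeast represses many peroxisomal genes on glucose and induces them on fatty acids through the pair of transcription factors Oaf1 and Pip2, which bind the oleate response element.

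Total counts were 8894585 to 12696572 reads in the quiescent libraries and 10476761 to 14213993 in the log libraries, and each member had between 32 and 1607 reads in a quiescent library and between 7 and 656 in a log library. Protein-coding genes held 33.8% ± 6.88 of reads in quiescent cells and 67.4% ± 4.20 in log cells (SD, n = 3 each). The state labels were checked on marker genes: all 7 quiescence genes such as HSP12 and SPG1 rose, and all 6 growth genes such as RPL3 and PMA1 fell (edgeR). The 5 genes that define MATa cells fell and summed to 59.4 to 121 RPKM (reads per length of gene and per library size, normalised between libraries) in quiescent libraries and 1126 to 1778 in log libraries. The 3 alpha-type genes summed to 19.8 to 27.1 and 11.8 to 13.3 RPKM, and their part in the members' values was not tested. HTA2 and HTB2, labelled as deleted, were at 30.4 and 23.2 RPKM in quiescent cells and 27.9 and 17.8 RPKM in log cells, and each has a close copy (HTA1, HTB1) with which reads may be shared.

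Most members were higher in quiescent cells. Of 33 members, all of which passed the filter on low values (a mean TPM of at least 1), 25 rose and 2 fell, with an adjusted p under 0.05 in the edgeR quasi-likelihood test on counts scaled by TMM, which aligns the bulk of rows between libraries. In that test 72.8% of the 5608 tested protein-coding genes passed, with 31.8% risen and 41.0% fallen; of all 7305 tested rows 67.9% passed, with 32.8% risen and 35.2% fallen. Changes are given as log2 fold changes, quiescent minus log, with their standard error (SE). With total-count scaling in place of TMM, 19 rose and 2 fell. With limma on log2(TPM + 1), called the TPM scale here, the scaling, the transform and the test all differ from the edgeR fit. TPM is a gene's share of the library per length, and there the median of all tested genes lay at -0.98 instead of -0.21; 10 members rose and 7 fell. On that scale 14.2% of genes rose and 60.1% fell, so that 19.2% of gene calls were upward against 43.7% in the edgeR fit. The median log2 fold change of the members was 1.27 in the edgeR fit and 0.23 on the TPM scale, in each case above the median of all tested genes, and 29 and 30 of the 33 members lay above that median. Such values are shares of each library, so fewer cells that express a gene and less of its RNA per cell cannot be told apart.

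**Figure D1:**
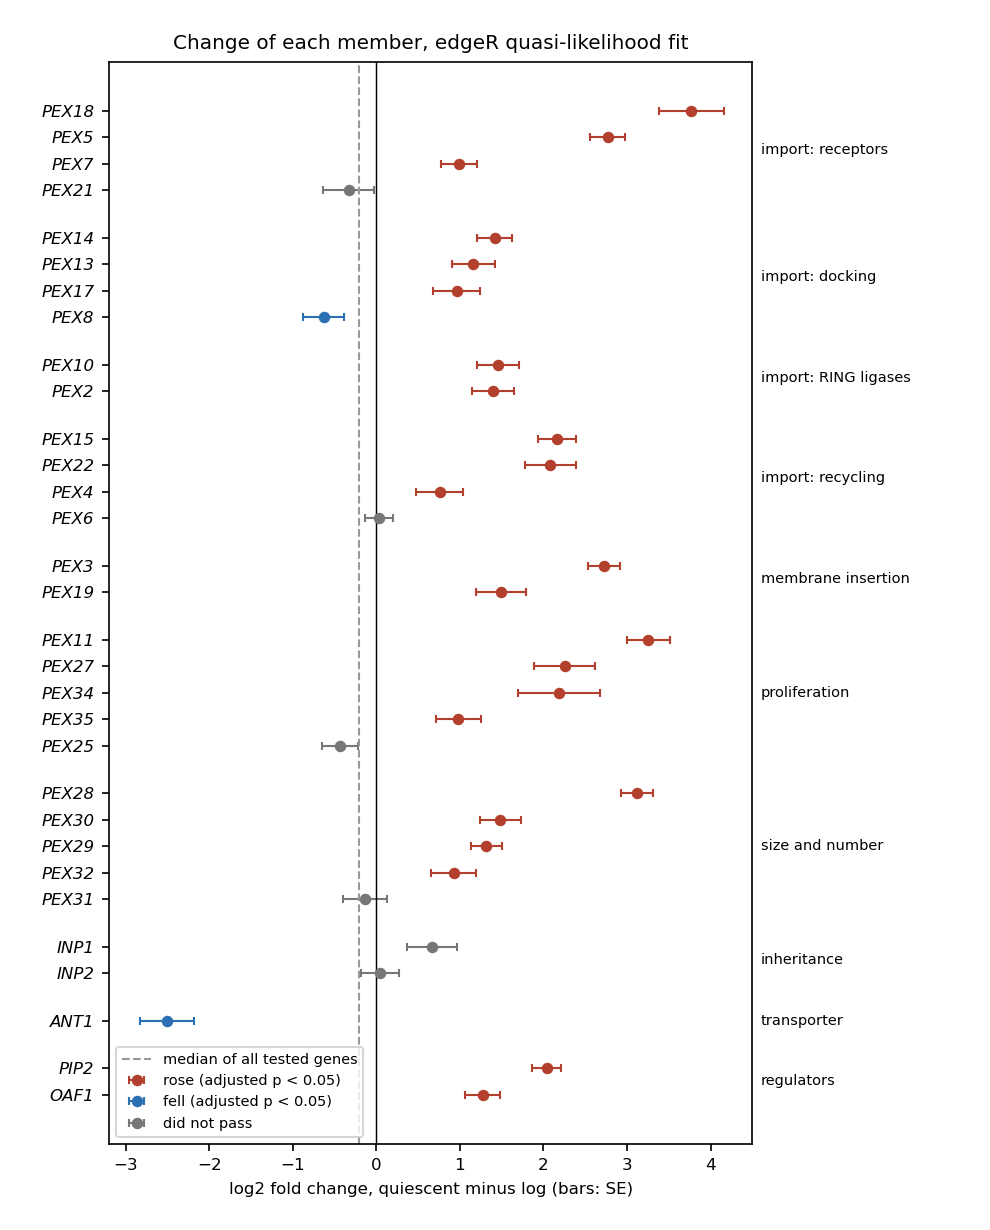
Log2 fold change (quiescent minus log, x axis) of 31 of the 33 members, with the SE as bars (n = 3 libraries per group) and the median of all tested genes as a dashed line. PEX18, PEX11 and PEX28 lie farthest to the right and ANT1 farthest to the left; PEX4, PEX7, PEX17, PEX32 and PEX35, drawn as risen, had a negative sign on the TPM scale.

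In every setting tried on all 33 members, the same 10 rose: PEX3, PEX5, PEX11, PEX15, PEX18, PEX22, PEX27, PEX28, PEX34 and PIP2. ANT1 fell in every one. These 15 settings include the main fit and leave out the filter of 10 TPM, which kept only 3 members. In 27 members the quiescent and log libraries did not overlap on the normalised RPKM scale, 25 of them higher in quiescent cells; among all tested genes 77.8% did not overlap, and 33.8% did not overlap and were higher. The summed reads of the members were 0.338% ± 0.0140 of protein-coding reads in quiescent cells and 0.0727% ± 0.00900 in log cells (SD, n = 3 each). Protein-coding reads were 33.8% of all reads in quiescent cells and 67.4% in log cells, so against all reads the members rose less. Their summed level was 979 ± 73.5 RPKM in quiescent cells and 333 ± 12.5 RPKM in log cells (SD, n = 3 each).

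**Figure D2:**
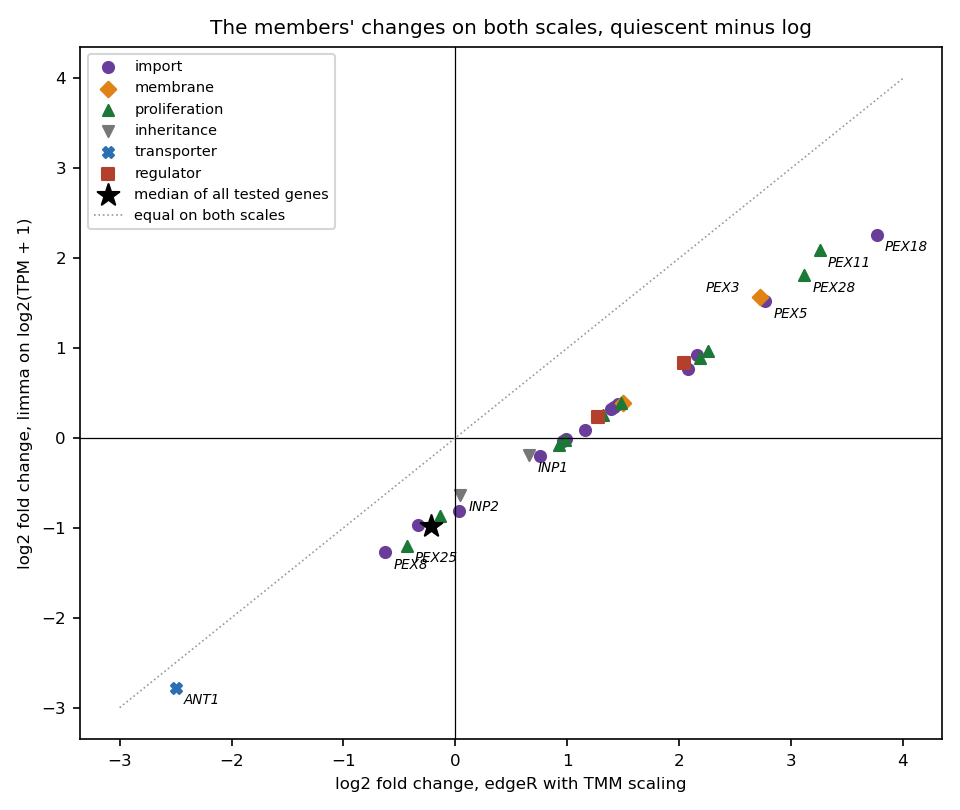
Log2 fold change of 31 of the 33 members in the edgeR fit with TMM scaling (x axis) and in limma on log2(TPM + 1) (y axis), quiescent minus log, by class, with the median of all tested genes as a star. All points lie below the line of equal values, and the members between 0.66 and 0.99 on the x axis had negative values on the y axis.

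The regulator genes rose in the edgeR fit. PIP2 (YOR363C, chromosome XV, 1020222 to 1023212), which encodes the oleate-induced partner of the Oaf1-Pip2 pair, was at 30.0, 24.9 and 26.8 RPKM in quiescent libraries and 6.32, 6.82 and 6.72 RPKM in log libraries. Its log2 fold change was 2.04 (SE 0.17, adjusted p = 3.31e-06, edgeR), and the groups were far apart. OAF1 (YAL051W, chromosome I, 48564 to 51707), whose product is the fatty acid sensor of the pair, was at 22.4, 21.3 and 19.7 RPKM in quiescent libraries and 9.31, 10.5 and 6.42 RPKM in log libraries. It rose by 1.27 (SE 0.21, adjusted p = 0.000398, edgeR) and did not pass on the TPM scale (0.23, adjusted p = 0.434, limma). Within a library, PIP2 was at 1.34, 1.17 and 1.36 times the level of OAF1 in quiescent cells and at 0.679, 0.649 and 1.05 times in log cells, so PIP2 was the higher of the pair in every quiescent library and in 1 of the 3 log libraries.

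The oleate response element was searched as CGGNNNTNA, then 9 to 12 bases of any kind, then CCG, on both strands of the 500 bases before each coding start in the R64 genome. It was found before 5 of the 33 members (15.2%), before 12 of the 23 genes of a list of peroxisomal matrix enzymes and fatty acid oxidation (52.2%), and before 113 of 6019 protein-coding genes (1.88%). The members' elements are shown because they match the known binding sequence of the Oaf1-Pip2 pair, whose own gene PIP2 holds a match. Binding was not tested. They are written in the direction in which they match, with the fixed bases in capitals, and 2 enzyme genes stand beside them.
PIP2: CGGaacTaAatataatctCCG
PEX11: CGGcatTtAtctcggagaacCCG
PEX5: CGGagtTaAtcgcgatgatCCG
PEX13: CGGaaaTaAaaaaaatttggcCCG
PEX6: CGGcgaTaAtcgtcaacacttCCG
POT1: CGGggaTaAtagtattaacaCCG
CTA1: CGGcttTaAcaaatataaactCCG
The PIP2, POT1 and CTA1 elements match on both strands, and those of PEX5 and PEX13 match only on the strand opposite to the gene. All 5 members' elements lay within a narrow stretch, between 175 and 113 bases before the coding start. The log2 fold changes of these members ranged from 3.26 for PEX11, 2.77 for PEX5, 2.04 for PIP2 and 1.16 for PEX13, which did not pass on the TPM scale, to 0.04 for PEX6, which did not pass in the edgeR fit and lay at -0.81 on the TPM scale.

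The setting of the element is shown for the 3 of these genes that rose in every setting, as the bases from 200 to 101 before the coding start on the gene's strand, with the element in capitals (R64).
PEX11 (chrXV:48744-48843, minus strand): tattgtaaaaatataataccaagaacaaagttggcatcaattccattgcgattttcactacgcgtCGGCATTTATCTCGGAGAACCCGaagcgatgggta
PEX5 (chrIV:950363-950462, plus strand): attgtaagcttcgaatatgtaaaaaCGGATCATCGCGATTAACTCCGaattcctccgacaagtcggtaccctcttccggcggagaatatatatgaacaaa
PIP2 (chrXV:1023313-1023412, minus strand): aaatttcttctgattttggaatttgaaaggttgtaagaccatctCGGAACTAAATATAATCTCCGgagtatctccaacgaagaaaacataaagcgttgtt
A match describes the letters of the window and no more.

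Among the 4 receptor genes of import, 3 rose and 1 did not pass. PEX18 (YHR160C, chromosome VIII, 419221 to 420072), a co-receptor for PTS2 proteins, had the largest change of all members. It had 461, 403 and 437 reads in quiescent libraries and 29, 67 and 26 reads in log libraries, or 54.0, 41.4 and 55.1 RPKM in quiescent cells and 2.39, 6.56 and 2.23 RPKM in log cells. Every quiescent library was far above every log library, of which replicate 2 was the highest. The log2 fold change was 3.77 (SE 0.39, adjusted p = 1.29e-05, edgeR), a 13.6-fold rise, and was 4.43 without log replicate 2.

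PEX5 (YDR244W, chromosome IV, 950563 to 952401) encodes the receptor for PTS1, the signal that most matrix enzymes carry. It was at 69.2, 48.1 and 54.4 RPKM in quiescent libraries and 8.30, 9.29 and 7.61 RPKM in log libraries, without overlap, and rose by 2.77 (SE 0.21, adjusted p = 1.26e-06, edgeR). PEX7 (YDR142C), the PTS2 receptor gene, was at 16.0, 15.3 and 15.9 RPKM in quiescent cells and 6.83, 8.13 and 8.86 RPKM in log cells. Its rise of 0.99 (SE 0.22, adjusted p = 0.00223, edgeR) was not seen on the TPM scale (-0.01). PEX21 (YGR239C), the other PTS2 co-receptor gene and a paralog of PEX18, was at 9.33, 5.85 and 7.68 RPKM in quiescent libraries and 9.14, 12.2 and 7.40 RPKM in log libraries. These groups overlapped, and the value of -0.33 (SE 0.31, adjusted p = 0.358, edgeR) did not pass. PEX21 passed downward on the TPM scale (-0.97, adjusted p = 0.00285, limma), close to the median of all tested genes there (-0.98).

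Of the 4 docking genes 3 rose and 1 fell, with smaller log2 fold changes than those of PEX5 and PEX18. PEX14 (YGL153W), the main docking protein, was at 29.3, 24.9 and 34.3 RPKM in quiescent libraries and 9.84, 10.6 and 12.7 RPKM in log libraries, a rise of 1.42 (SE 0.21). PEX13 (YLR191W) was at 20.6, 34.1 and 18.04 RPKM in quiescent libraries and 10.9, 11.1 and 10.6 RPKM in log libraries, a rise of 1.16 (SE 0.26), with quiescent replicate 2 well above the others. PEX17 (YNL214W) rose by 0.96 (SE 0.29), which was -0.03 on the TPM scale and did not pass without log replicate 1 (0.84, adjusted p = 0.0659, edgeR). PEX14 and PEX13 kept a positive sign on the TPM scale (0.34 and 0.09) without passing. PEX8 (YGR077C), whose product joins the docking complex to the RING ligases inside the organelle, went the other way. It was at 5.98, 10.4 and 8.80 RPKM in quiescent libraries and 10.9, 15.2 and 13.0 RPKM in log libraries, at -0.63 (SE 0.25, adjusted p = 0.0439, edgeR). That fall was lost without log replicate 2 (-0.51), log replicate 3 (-0.58), quiescent replicate 1 (-0.41) or quiescent replicate 3 (-0.61), with adjusted p of 0.0930 to 0.148, and with TMM from protein-coding rows (-0.42), median-of-ratios scaling and DESeq2 (-0.57 each).

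Among the RING ligase genes, PEX2 and PEX10 rose in the edgeR fit. PEX2 (YJL210W, chromosome X) was the third highest member in quiescent cells at 48.6, 81.9 and 49.5 RPKM, against 22.9, 18.9 and 26.7 RPKM in log cells, and rose by 1.39 (SE 0.25, adjusted p = 0.000647). PEX10 (YDR265W) was at 22.7, 19.6 and 19.6 RPKM in quiescent libraries and 6.91, 9.78 and 5.90 RPKM in log libraries, and rose by 1.45 (SE 0.25). Neither gene's groups overlapped. On the TPM scale PEX2 and PEX10 lay at 0.32 and 0.37 and did not pass.

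The genes of receptor recycling had their largest log2 fold changes in the membrane anchors. PEX15 (YOL044W, chromosome XV), which encodes the anchor of the ATPases, was at 24.1, 25.7 and 28.8 RPKM in quiescent libraries and 7.12, 5.79 and 4.62 RPKM in log libraries. It rose by 2.16 (SE 0.23, adjusted p = 1.46e-05, edgeR). PEX22 (YAL055W, chromosome I), which encodes the anchor of the ubiquitin-conjugating enzyme Pex4, was at 16.8, 16.0 and 15.05 RPKM in quiescent libraries and 3.36, 4.15 and 3.76 RPKM in log libraries, and rose by 2.08 (SE 0.31). For both genes every quiescent library was far above every log library, and PEX22 had only 26, 27 and 28 reads in the log libraries. PEX4 (YGR133W) was at 17.0, 23.1 and 21.6 RPKM in quiescent libraries and 11.7, 9.22 and 15.6 RPKM in log libraries. These did not overlap, and it rose by 0.76 (SE 0.28, adjusted p = 0.0354, edgeR), with a value of -0.20 on the TPM scale. PEX4 lost its call without log replicate 1 (0.72), log replicate 2 (0.59), quiescent replicate 2 (0.68) or quiescent replicate 3 (0.77), and with the replicate block (0.77, adjusted p = 0.0550, edgeR). It did not pass with total-count scaling (0.53) or with no filter (0.60) either. PEX6 (YNL329C), an ATPase gene, was at 13.7, 16.5 and 15.4 RPKM in quiescent libraries and 14.9, 14.7 and 15.01 RPKM in log libraries. Its groups overlapped and its value of 0.04 (SE 0.17, adjusted p = 0.854, edgeR) did not pass. On the TPM scale PEX6 fell (-0.81, adjusted p = 0.00547, limma), but by less than the median of all tested genes there (-0.98).

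**Figure D3:**
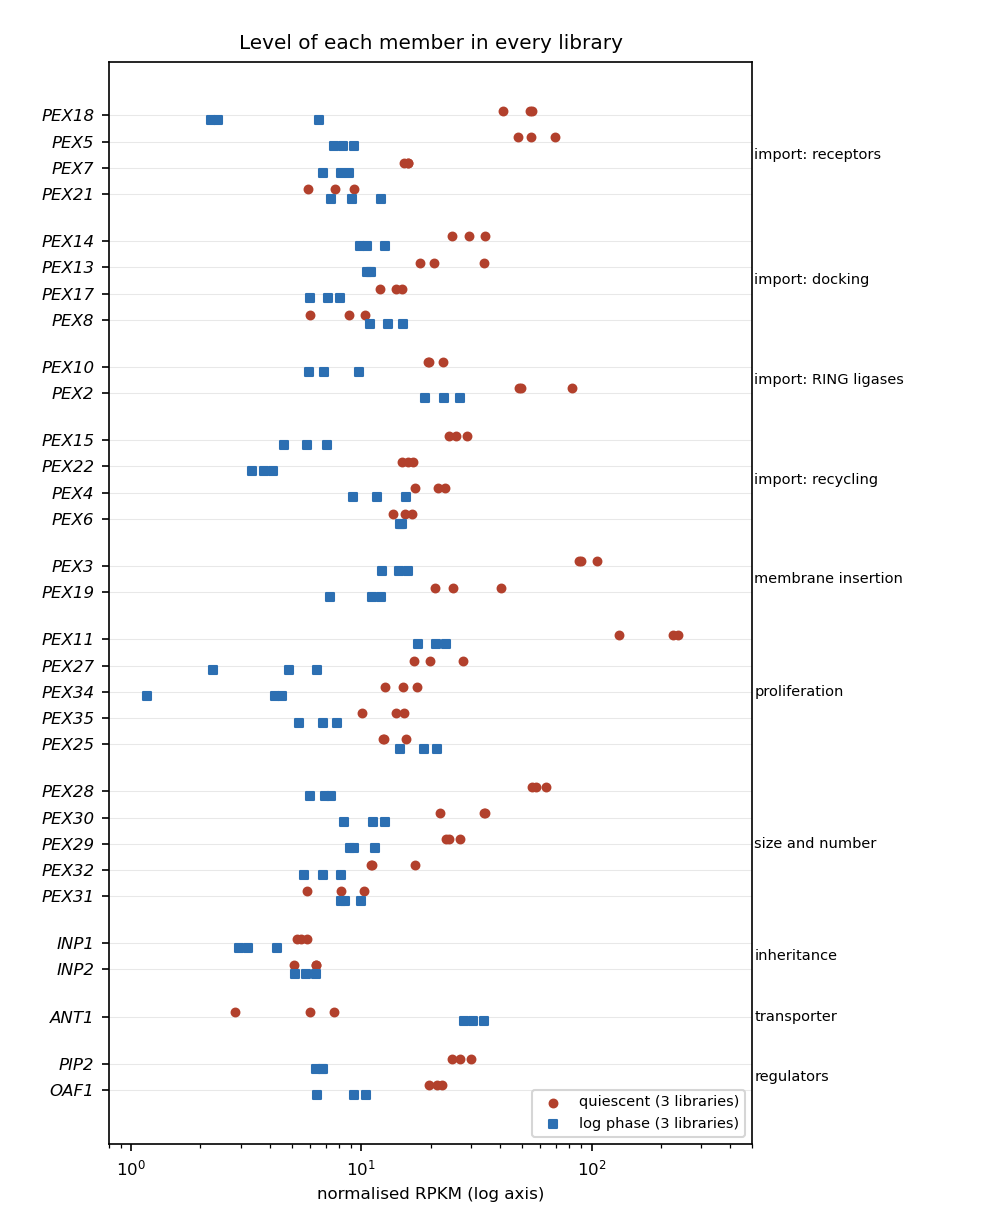
Normalised RPKM (log axis) of 31 of the 33 members in the 3 quiescent libraries (circles) and the 3 log libraries (squares), by role. PEX11 and PEX3 are the highest in quiescent cells, and ANT1 has the highest mean in log cells and the lowest in quiescent cells. Of the members drawn 26 show no overlap, and among all tested protein-coding genes 77.8% show none.

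Both genes of membrane protein insertion rose in the edgeR fit. PEX3 (YDR329C, chromosome IV, 1126270 to 1127595), whose product receives membrane proteins at the organelle, was the second highest member in quiescent cells. It was at 105, 87.9 and 89.8 RPKM in quiescent libraries and 14.6, 12.3 and 15.9 RPKM in log libraries. The groups were narrow and well apart, with a log2 fold change of 2.72 (SE 0.19, adjusted p = 7.80e-07, edgeR), a 6.61-fold rise. PEX19 (YDL065C, chromosome IV), which encodes the soluble chaperone and receptor for these proteins, was at 40.4, 20.8 and 25.0 RPKM in quiescent libraries and 11.1, 12.2 and 7.30 RPKM in log libraries. It rose by 1.495 (SE 0.30, adjusted p = 0.00125, edgeR), with quiescent replicate 1 above the others, and did not pass on the TPM scale (0.39).

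Of the 5 proliferation genes, 4 rose and 1 did not pass. PEX11 (YOL147C, chromosome XV, 47933 to 48643), whose product elongates the membrane before division, had 1607, 1070 and 1568 reads in quiescent libraries and 213, 151 and 228 reads in log libraries. It was at 226, 132 and 237 RPKM in quiescent cells and 21.0, 17.7 and 23.4 RPKM in log cells, the highest member in quiescent cells and the third highest in log cells. Every quiescent library, of which replicate 2 was the lowest, was far above every log library. The log2 fold change was 3.26 (SE 0.26, adjusted p = 2.14e-06, edgeR), a 9.56-fold rise. PEX11 alone held 20.0% ± 4.65 of the members' summed level in quiescent cells and 6.24% ± 1.02 in log cells (SD, n = 3 each).

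PEX25 and PEX27 encode related proteins of the Pex11 family, and their values had opposite signs. PEX27 (YOR193W) was at 16.9, 27.6 and 19.9 RPKM in quiescent libraries and 4.83, 6.41 and 2.26 RPKM in log libraries, and rose by 2.26 (SE 0.37, adjusted p = 0.000320, edgeR). PEX25 (YPL112C), needed to start proliferation, was at 12.4, 12.5 and 15.7 RPKM in quiescent libraries and 18.7, 14.8 and 21.3 RPKM in log libraries. These overlap, and its value of -0.43 (SE 0.22, adjusted p = 0.0997, edgeR) did not pass, although it passed downward on the TPM scale (-1.20, adjusted p = 0.000268, limma). PEX34 (YCL056C), which acts with this family, was at 17.5, 15.1 and 12.6 RPKM in quiescent libraries and 4.52, 4.22 and 1.17 RPKM in log libraries, the last from 7 reads. It rose by 2.18 (SE 0.49, adjusted p = 0.00263, edgeR), with the widest error of the members. PEX35 (YGR168C), a regulator of peroxisome number, rose by 0.98 (SE 0.27, adjusted p = 0.00767, edgeR) and lay at -0.02 on the TPM scale.

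The 5 genes of size and number, which encode proteins of the peroxisome and of its contacts with the endoplasmic reticulum, gave 4 risen and 1 that did not pass. PEX28 (YHR150W, chromosome VIII, 397251 to 398990) stood out among them at 63.6, 55.3 and 57.6 RPKM in quiescent libraries and 5.999, 6.94 and 7.37 RPKM in log libraries. It rose by 3.12 (SE 0.19, adjusted p = 3.18e-07, edgeR), the lowest adjusted p of the members. PEX30 (YLR324W), whose product shapes tubules of the endoplasmic reticulum, was at 34.0, 21.9 and 34.4 RPKM in quiescent libraries and 11.2, 12.7 and 8.39 RPKM in log libraries, and rose by 1.49 (SE 0.24). PEX29 (YDR479C) rose by 1.32 (SE 0.19) and PEX32 (YBR168W) by 0.93 (SE 0.27). On the TPM scale PEX30 (0.39), PEX29 (0.26) and PEX32 (-0.08) did not pass. PEX31 (YGR004W), a close relative of PEX30, was at 5.82, 8.18 and 10.3 RPKM in quiescent libraries and 8.52, 9.96 and 8.19 RPKM in log libraries, which overlap. Its value of -0.14 (SE 0.26, adjusted p = 0.664, edgeR) did not pass and was 0.08 without quiescent replicate 1. PEX31 passed downward on the TPM scale (-0.86, adjusted p = 0.00251, limma), but fell by less than the median of all tested genes there (-0.98). With total-count scaling PEX32 (0.65), PEX35 (0.75) and PEX17 (0.74) did not pass.

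Set side by side, the import genes had 13 risen and 1 fallen of 16 with a median of 1.07, the membrane pair had 2 risen with a median of 2.11, and the proliferation and size genes had 8 risen of 10 with a median of 1.40. Of all tested protein-coding genes 31.8% rose and 41.0% fell, with a median of -0.21 (edgeR). The order of the 3 class medians was the same on the TPM scale, where they were 0.04, 0.98 and 0.33. The median of all tested genes lay at -0.98 there. The ranges overlapped, from -0.63 to 3.77 for import, 1.495 to 2.72 for membrane and -0.43 to 3.26 for proliferation, so the classes as such are not shown to differ. Shares of the members' summed level within a library do not depend on how libraries are scaled. Import genes held 40.5% ± 4.24 in quiescent cells and 47.0% ± 1.94 in log cells (SD, n = 3 each), which overlap. Proliferation and size genes held 40.3% ± 4.02 and 29.1% ± 1.31, and the membrane pair held 12.5% ± 1.46 and 7.36% ± 0.544, in quiescent and in log cells, without overlap. In the class sums the difference lay in PEX11 and PEX3: the 9 other proliferation and size genes together held 20.3% ± 0.801 in quiescent cells and 22.8% ± 1.64 in log cells, which overlap. The shares of single genes among these 9 moved in opposite directions. PEX28 held 6.02% in quiescent cells and 2.03% in log cells. In the same order PEX25 held 1.38% and 5.51%, and PEX31 0.832% and 2.67%, all without overlap. Neither PEX25 (-0.43) nor PEX31 (-0.14) passed in the edgeR fit, and a rise in the summed level lowers the share of an unchanged gene. The share of ANT1 was 0.548% in quiescent cells and 9.25% in log cells, and a fall in 1 share raises the others. PEX3 held 9.64% ± 0.704 and 4.30% ± 0.677, and PEX19 2.90% ± 0.887 and 3.06% ± 0.727, in quiescent and in log cells, with overlap for PEX19 only.

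The inheritance genes did not pass. INP1 (YMR204C), whose product holds peroxisomes in the mother cell, was at 5.45, 5.81 and 5.27 RPKM in quiescent libraries and 2.94, 4.29 and 3.23 RPKM in log libraries. It did not overlap, yet its value of 0.66 (SE 0.30, adjusted p = 0.0713, edgeR) missed the threshold, passed it with TMM from protein-coding rows (0.87) and DESeq2 (0.73), and lay at -0.19 on the TPM scale. INP2 (YMR163C), the receptor that ties peroxisomes to the motor Myo2 for transport to the bud, was at 6.36, 5.07 and 6.34 RPKM in quiescent libraries and 5.75, 6.33 and 5.16 RPKM in log libraries. Those libraries overlapped fully (0.04, SE 0.22, adjusted p = 0.874, edgeR). On the TPM scale INP2 fell (-0.63, adjusted p = 0.0264, limma), but by less than the median of all tested genes there (-0.98). MYO2 itself fell to 4.90, 6.25 and 5.00 RPKM in quiescent libraries, against 67.8, 62.5 and 63.3 RPKM in log libraries (-3.58, SE 0.20, adjusted p = 2.36e-07, edgeR).

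ANT1 (YPR128C, chromosome XVI, 791218 to 792204) was the one member that fell strongly. It encodes the carrier that brings ATP into the peroxisome in exchange for AMP. There were 75, 32 and 55 reads in quiescent libraries and 393, 402 and 414 reads in log libraries, or 7.59, 2.83 and 5.99 RPKM in quiescent cells and 27.9, 34.0 and 30.6 RPKM in log cells. Every log library was above every quiescent library. ANT1 had the highest mean of all members in log cells and the lowest in quiescent cells, where its libraries overlapped those of INP1 and INP2. The log2 fold change was -2.50 (SE 0.32, adjusted p = 6.48e-05, edgeR), and it ranged from -3.50 to -2.16 over the settings.

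Ratios of a pair of members within a library do not depend on the scaling, and 6 were computed. In all 6 the quiescent and log libraries did not overlap, with an exact two-sided permutation p of 0.1 (0.1 after adjustment over the 6), the smallest that 3 against 3 libraries allow. No ratios of other gene pairs were computed, and 77.8% of single tested protein-coding genes did not overlap. The 6 are therefore not shown to differ from other pairs. PEX18 was at 5.76, 7.02 and 7.12 times the level of its paralog PEX21 in quiescent libraries and at 0.264, 0.539 and 0.305 times in log libraries, a difference of 4.23 on the log2 scale. PEX21 was thus the higher paralog in log cells and PEX18 in quiescent cells. PEX25 was at 0.735, 0.455 and 0.790 times the level of PEX27 in quiescent libraries and at 3.86, 2.30 and 9.32 times in log libraries, so this pair changed order as well. PEX30 was at 5.81, 2.67 and 3.34 times PEX31 in quiescent libraries and at 1.31, 1.27 and 1.02 times in log libraries. The ratio of the PTS1 receptor gene PEX5 to the PTS2 receptor gene PEX7 was 4.31, 3.13 and 3.41 in quiescent libraries and 1.21, 1.14 and 0.858 in log libraries. INP2 was at 1.16, 0.871 and 1.20 times INP1 in quiescent libraries and at 1.94, 1.47 and 1.59 times in log libraries.

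**Figure D4:**
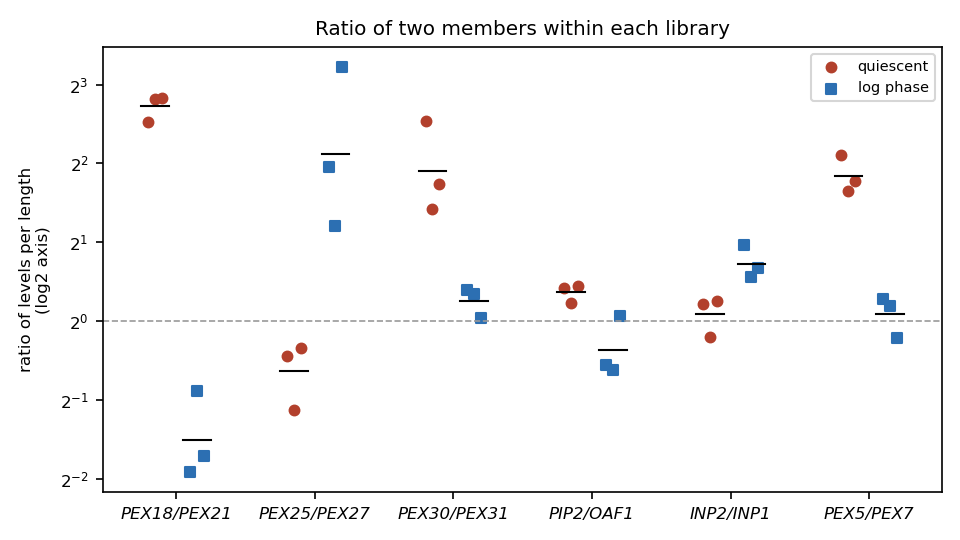
Ratio of the levels per length of a pair of members in each library (log2 axis), with quiescent libraries as circles, log libraries as squares and the mean of the log2 ratios as a bar (n = 3 each). The ratios of PEX18 to PEX21 and of PEX25 to PEX27 lie on opposite sides of 1 in the groups.

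A list of genes of matrix enzymes and fatty acid oxidation had a higher median log2 fold change than the members. Of its 23 genes, 20 rose and 2 fell, while 31.8% of all tested protein-coding genes rose and 41.0% fell. The median of the list was 4.80, against 1.27 for the members, and its genes ranged from -1.86 to 8.93. CTA1, the peroxisomal catalase gene, was at 948, 705 and 848 RPKM in quiescent libraries and 1.22, 1.78 and 2.12 RPKM in log libraries (8.93, SE 0.35). POT1, the thiolase gene, changed by 8.56 (SE 0.44), POX1, the acyl-CoA oxidase gene, by 8.09 (SE 0.35) and FOX2, the multifunctional enzyme gene, by 7.92 (SE 0.36). CTA1, POT1, POX1 and FOX2 had 7 to 92 reads in a log library, and their adjusted p was at most 1.53e-07 (edgeR). Those that fell were AAT2 (-1.86, SE 0.21), an aspartate aminotransferase gene, and NPY1 (-1.84, SE 0.25), an NADH diphosphatase gene. PEX9, a second PTS1 receptor gene that is not among the members, was at 66.7, 27.8 and 73.8 RPKM in quiescent libraries and 0.635, 0.701 and 0.566 RPKM in log libraries (6.46, SE 0.43, adjusted p = 5.61e-07, edgeR). PEX9 was above PEX5 in quiescent replicate 3 and below it in quiescent replicates 1 and 2 and in every log library.

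Of the 5 fission genes, FIS1 (2.00, SE 0.28), MDV1 (1.31, SE 0.24) and DNM1 (0.59, SE 0.18) rose and the dynamin gene VPS1 fell (-1.62, SE 0.20). CAF4 did not pass (-0.43, SE 0.26) except downward on the TPM scale (-1.12, adjusted p = 0.000512, limma). The shares of all tested protein-coding genes that rose and fell were 31.8% and 41.0% (edgeR). DNM1 lay at -0.38 on the TPM scale, where MDV1 did not pass (0.22), and lost its call without log replicate 1 (0.58, adjusted p = 0.0575, edgeR), with total-count scaling (0.35, adjusted p = 0.325) and with no filter (0.44, adjusted p = 0.0741). Both pexophagy genes rose: ATG36, the receptor that marks peroxisomes for degradation, was at 62.1, 70.8 and 68.0 RPKM in quiescent libraries and 7.07, 7.66 and 4.30 RPKM in log libraries (3.40, SE 0.25), and its adaptor gene ATG11 rose by 2.37 (SE 0.20). ADR1, the activator of glucose-repressed genes that acts with Oaf1 and Pip2, was at 118, 136 and 104 RPKM in quiescent libraries and 17.5, 17.1 and 13.4 RPKM in log libraries (2.90, SE 0.22, adjusted p = 1.36e-06, edgeR). OAF3 (0.44, SE 0.21), a regulator gene of the same family as OAF1, and the kinase gene SNF1 (0.07, SE 0.19) did not pass in the edgeR fit. On the TPM scale OAF3 lay at -0.42 and did not pass, and SNF1 passed downward (-0.87, adjusted p = 0.0133, limma). The median of all tested genes lay lower there, at -0.98. OAF3 passed upward with TMM from protein-coding rows (0.65), without log replicate 3 (0.63) and without quiescent replicate 1 (0.59), and SNF1 passed upward with a filter of 10 TPM (0.55).

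A property that the choice of members did not use is the gene next to each. Divergent neighbours, with 600 or fewer bases between the coding starts, were annotated for 14 members, 13 that rose and ANT1. Of the neighbours of those 13, 6 rose, 2 fell and 5 did not pass. Among all 5608 tested protein-coding genes 31.8% rose and 41.0% fell, and whether the neighbours differ from these was not tested. SCD6, 482 bases from ANT1, fell (-0.68, SE 0.20, adjusted p = 0.0111, edgeR). PEX3 and UBX5, with 276 bases between them, changed by 2.72 and 1.98 (SE 0.19 each), and PEX14 and LYS5, with 176 bases between them, by 1.42 (SE 0.21) and 1.71 (SE 0.28). PEX11, PEX28 and PEX5, which changed most among the 14, had neighbours that did not rise: PSF3, 220 bases from PEX11, was at 0.49 (SE 0.30), PRP28, 278 bases from PEX5, at -0.09 (SE 0.21), and SKG6, 591 bases from PEX28, fell by 1.95 (SE 0.34).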

How the data were processed

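RNA was measured in 6 libraries, 3 per group. Whole-number read counts of each feature and the feature lengths in bases come from 1 table deposited by the authors, per the file headers. The submitters' processing notes name build R64. Which aligner, counter and strand setting were used is not given in the sources used here. Another 6 columns hold deposited TPM and were not used. TPM (a share of the library per base of feature length) was computed here from the counts and lengths and differed from them by at most 0.05.

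Counts were tested two-sided with edgeR's quasi-likelihood method (version 4.0.16, under R 4.3.3) over the 7305 rows that averaged 1 TPM or more, with TMM scaling (factors that align most rows between libraries) and no further term. Benjamini-Hochberg adjustment ran over those 7305 rows, with calls made under 0.05. Log2 fold changes are quiescent minus log. Standard errors (SE) were derived from each fold change with the F statistic. Levels are normalised RPKM, reads per 1000 bases of feature and per TMM-scaled library size, so that they can be compared between genes. The limma 3.58.1 fit on log2(TPM + 1), DESeq2 1.42.0, other scalings and filters, a replicate block and fits without 1 library were alternatives. The edgeR step was tested on simulated data in which few rows changed, as many upward as downward. Most rows passed in the real data, so the simulation does not check the scaling there.

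Ratios of a pair of members in a library were counts plus 0.5 over length, compared by an exact permutation test. Same-numbered libraries did not deviate together (Pearson's r 0.10, -0.14 and -0.13 across rows), so the numbers were not taken to pair the libraries. Of the 33 members 31 are named, and the other 2 enter the counts but are not reported here; of the other lists, the named genes are all of those with 5 or fewer genes, the 4 called genes of largest change in longer ones, and any called against the majority. The members and lists were chosen with earlier results of these data known. Strand being unknown, reads of a gene and of an antisense transcript cannot be told apart; none of the members overlaps another annotated gene of the reference. ERCC spike-ins were not used, since no row is named for one.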

Additional observations from a re-analysis of the deposited data

How the results depend on the processing

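With limma on log2(TPM + 1) and on log2(TPM + 0.1), 10 members rose and 7 fell in each. Of all rows 1059 and 1035 rose and 3936 and 3892 fell, and 799 and 781 genes rose. The class medians were 0.037 and 0.034 for import, 0.98 and 1.07 for membrane, and 0.33 and 0.38 for proliferation. The median of all tested genes lay at -0.98 and -1.21 in these fits. Signs turned there for PEX4 (-0.20 and -0.23), PEX6 (-0.81 and -0.96), PEX7 (-0.013 and -0.019), PEX17 (-0.033 and -0.052), PEX32 (-0.080 and -0.10), PEX35 (-0.021 and -0.035), INP1 (-0.19 and -0.31), INP2 (-0.63 and -0.92), DNM1 (-0.38 and -0.42), OAF3 (-0.42 and -0.55) and SNF1 (-0.87 and -0.96). Values near 0 also changed sign with total-count scaling (PEX6 -0.20, INP2 -0.19, SNF1 -0.15), with no filter (PEX6 -0.11, INP2 -0.11, SNF1 -0.077) and with TMM from protein-coding rows (PEX31 0.075). Leaving out each library in turn gave -0.0098 to 0.13 for PEX6 and -0.082 to 0.25 for SNF1, each negative without quiescent replicate 2, and -0.29 to 0.081 for PEX31, positive without quiescent replicate 1. The cause was not tested.

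With TMM from protein-coding rows, median-of-ratios scaling and DESeq2, 1 member fell, since PEX8 no longer passed. The import and proliferation medians were 1.28 and 1.61 with TMM from protein-coding rows, 0.85 and 1.17 with total-count scaling, and 0.93 and 1.25 with no filter. With total-count scaling 19 members rose and with no filter 22. A filter of 10 TPM left 3 members, all risen and 0 fallen by edgeR, with 949 rows risen and 1086 fallen, 669 genes risen and 1001 fallen, and import, membrane and proliferation medians of 1.88, 3.21 and 3.75; fewer rows were tested there. Leaving out each library in turn gave 21 to 25 members risen and 1 to 2 fallen, import medians of 0.98 to 1.22, membrane medians of 1.93 to 2.24 and proliferation medians of 1.35 to 1.52. The 6 ratios kept their sign in each of these, and PEX18 to PEX21 stayed between 4.03 and 4.54 on the log2 scale. With the replicate block 24 members rose and 2 fell, PEX4 being lost; same-numbered libraries did not deviate together. With 3 libraries per group and as few as 7 reads for PEX34 in a log library, small changes are at the limit of the precision; errors of single read counts cover counting only.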
